A study of Mus musculus with 4 samples.

Results

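The nuclear genes for subunits of the oxidative phosphorylation complexes were examined in RNA sequencing libraries of activated lung group 2 innate lymphoid cells (ILC2s), lymphocytes that lack antigen receptors and make type 2 cytokines. The genes were taken by symbol, as the protein-coding rows beginning with Nduf and a subunit letter and number, with Sdh and 1 of the letters a to d, with Uqcr, with Cox4 to Cox8 or with Atp5. This gave 81 of the 22558 genes counted, of which 35 belonged to complex I, 4 to complex II, 8 to complex III, 17 to complex IV and 17 to complex V. Ndufa4 and Ndufa4l2 were counted with complex IV, to which Ndufa4 is now assigned. The study set 2 libraries from WT mice (C57BL/6) beside 2 from ICAM-1 KO mice on the C57BL/6 background, a constitutive mutation of the adhesion molecule ICAM-1, with all mice aged 6 weeks. Mice of both genotypes had received 3 intranasal challenges with 0.5 µg of rmIL-33, the epithelial cytokine that activates ILC2s, and ILC2s were sorted from the lungs on day 4 as lineage-negative CD45+ cells bearing ST2 and CD127. Each library was made from a pool of 4 mice, and no library of mice without IL-33 was analysed here.

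Oxidative phosphorylation passes electrons from NADH (complex I) and succinate (complex II) through coenzyme Q to complex III, then through cytochrome c to complex IV, which reduces oxygen. Complexes I, III and IV pump protons across the inner mitochondrial membrane, and complex V, the ATP synthase, lets them flow back to make ATP. Most subunits are encoded in the nucleus and imported, all of complex II among them, while a small set at the core of the other complexes is encoded by mitochondrial DNA and translated by the mitochondrial ribosome. Activated lymphocytes use this machinery beside glycolysis. The nuclear genes are known as targets of the transcription factors NRF1, the ETS factor GABP (also called NRF2), YY1 and the estrogen-related receptors (ERR).

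RefSeq promoter windows (build GRCm38.p6, mm10), running from 250 bases before to 50 bases after a start site, were held for 66 of the 81 genes and for 12052 protein-coding genes in all. In them 5 words were looked for on both strands, namely GCGCA and GCGC parted by any base for NRF1, CCGGAAG for ETS factors, AAGATG followed by GCGG for YY1, TCAAGGTCA for ERR and TATAAA for the TATA box. No word of the list lies within another. The 250 bases before the start are given for 5 genes, with matches in capitals and a word on the opposite strand shown as its reverse complement. Sdhd (chr9.0:50603850-50604099, minus strand), which encodes a membrane anchor of complex II, and Ndufa11 (chr17.0:56717512-56717761, plus strand), a membrane subunit of complex I, are shown as genes that were lower in the ICAM-1 KO-labelled libraries (adjusted p under 0.05, edgeR) and whose windows hold the NRF1 word. Ndufa13, Ndufc2, Cox7a2, Atp5d and Atp5g1 were lower by the same test, and their windows hold no NRF1 word. Cox6a1 (chr5.0:115348959-115349208, minus strand), the most abundant complex IV gene per length, is shown for its repeated NRF1 word. Cox7a2 (chr9.0:79759854-79760103, minus strand) and Cox7a1 (chr7.0:30183921-30184170, plus strand) encode the same complex IV position and are shown as an isoform pair whose windows held none of the 5 words.
Sdhd: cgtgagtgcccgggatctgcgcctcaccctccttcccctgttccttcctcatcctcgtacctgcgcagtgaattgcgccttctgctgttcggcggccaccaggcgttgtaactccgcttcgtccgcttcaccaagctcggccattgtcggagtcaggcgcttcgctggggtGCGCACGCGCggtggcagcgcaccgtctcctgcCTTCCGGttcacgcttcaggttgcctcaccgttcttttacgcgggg
Ndufa11: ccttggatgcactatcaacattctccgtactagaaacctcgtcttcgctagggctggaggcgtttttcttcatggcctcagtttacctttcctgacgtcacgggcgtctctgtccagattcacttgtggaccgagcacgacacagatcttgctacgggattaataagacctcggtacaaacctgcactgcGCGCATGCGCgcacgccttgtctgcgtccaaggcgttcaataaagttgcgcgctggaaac
Cox6a1: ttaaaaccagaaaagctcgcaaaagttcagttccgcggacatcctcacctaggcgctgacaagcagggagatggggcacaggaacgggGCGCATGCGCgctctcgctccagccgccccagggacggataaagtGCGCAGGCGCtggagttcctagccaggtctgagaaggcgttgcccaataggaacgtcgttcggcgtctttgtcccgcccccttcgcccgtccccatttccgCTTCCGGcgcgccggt
Cox7a2: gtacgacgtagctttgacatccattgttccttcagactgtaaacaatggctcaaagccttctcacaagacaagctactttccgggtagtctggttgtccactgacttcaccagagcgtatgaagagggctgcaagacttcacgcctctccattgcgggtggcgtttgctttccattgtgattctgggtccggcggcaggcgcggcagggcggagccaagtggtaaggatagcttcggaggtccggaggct
Cox7a1: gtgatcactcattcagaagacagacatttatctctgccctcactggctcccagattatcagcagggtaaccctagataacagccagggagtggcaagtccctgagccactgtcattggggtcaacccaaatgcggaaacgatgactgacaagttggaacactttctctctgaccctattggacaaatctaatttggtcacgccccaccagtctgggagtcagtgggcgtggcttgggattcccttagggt

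The NRF1 word began 79 bases before the start in Sdhd, 60 bases before it in Ndufa11 and 162 and 117 bases before it in Cox6a1. The ETS word began 46 bases before the start in Sdhd and 16 bases before it in Cox6a1. Sdhd also held the ERR word TGACCTTGA 36 bases after the start, outside the stretch printed. Over the 66 windows the NRF1 word was present in 16 (24.2%, against 9.2% of all windows), the ETS word in 15 (22.7%, against 16.3%), the YY1 word in 4 (6.06%, against 1.83%), the ERR word in 2 (3.03%, against 0.241%) and the TATA word in 5 (7.58%, against 8.29%). All 4 windows with the YY1 word belonged to complex I (Ndufa9, Ndufs4, Ndufs6 and Ndufs7), and those with the ERR word to Sdhd and Atp5g3. The genes with an NRF1 word were spread over the complexes, with 7 in complex I, 2 in complex II, 1 each in complexes III and IV and 5 in complex V.

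Depth was 27246151 and 28782471 counts for WT and 24796148 and 27458726 for ICAM-1 KO. Counts of Icam1, the targeted gene, were 2579 and 2630 for WT and 2812 and 3453 for the libraries with the ICAM-1 KO label (log2 fold change of ICAM-1 KO against WT 0.33, standard error 0.108, adjusted p = 0.0745, edgeR quasi-likelihood test with Benjamini-Hochberg adjustment), so that its RNA was not lower and the libraries are named by their labels. The paper reports, from flow cytometry of lung ILC2s after IL-33, that ICAM-1 KO mice lack ICAM-1 protein, which RNA counts do not measure. Most ILC2 genes were high in all 4 libraries. The summed normalized count of the list (the count plus 1, scaled by the upper quartile of the library) was 9307 and 9705 in WT and 7851 and 8076 in ICAM-1 KO. Lowest were Thy1 (23.9 and 24.2 in WT, 22.4 and 22.9 in ICAM-1 KO) and Il13 (31.6 and 35.2 in WT, 11.1 and 12.9 in ICAM-1 KO). Of the 15 ILC2 markers, 2 rose (Klrg1 and Ptprc) and 5 fell (Arg1, Id2, Il13, Il2ra and Il5), and none was at 0. For this and the lists that follow, 8.8% of all genes tested rose and 4.97% fell. Most markers of other cells were present and higher in the ICAM-1 KO-labelled libraries, with 9 of 9 endothelial, 8 of 9 macrophage and monocyte, 7 of 12 T cell and 4 of 6 B cell genes tested rising. Their summed normalized counts ran from 180 and 180 in WT to 467 and 500 in ICAM-1 KO for endothelium (Cav1, the gene in brackets being the most abundant of its list per length), from 281 and 277 to 563 and 826 for macrophages and monocytes (Lyz2), from 1006 and 1191 to 1565 and 1821 for T cells (Trbc2) and from 230 and 377 to 566 and 682 for B cells (Jchain). For epithelium (Scgb1a1) 4 of 7 rose, the sums being 420 and 189 against 536 and 1360. For neutrophils (S100a9) 3 of 5 rose, the sums being 147 and 77.2 against 149 and 133. The other 2, Mpo and Elane, had log2 fold changes of -1.62 and -1.55 and did not pass the test (adjusted p = 0.101 and 0.186, edgeR). Of 5 mesenchymal genes (Col3a1) none rose by this test, DESeq2 or limma, and 1 was higher at an unadjusted p under 0.05. Of 5 eosinophil genes 3 rose and 2 fell, Prg2 and Epx, the latter at 0 counts in both ICAM-1 KO-labelled libraries. Of the 8 proliferation genes (Pcna) 1 fell and the sums were 1988 and 2147 in WT and 1817 and 1731 in ICAM-1 KO. The part of these cells and genes in the results below was not tested, and in bulk RNA fewer cells of a type and less RNA per cell cannot be told apart.

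The nuclear oxidative phosphorylation genes were modestly lower in the ICAM-1 KO-labelled libraries, across all 5 complexes. They took 1.81% (95% Wilson interval 1.81 to 1.82) and 1.81% (1.807 to 1.817) of all counts in the WT libraries and 1.56% (1.551 to 1.561) and 1.57% (1.569 to 1.578) in the ICAM-1 KO-labelled libraries, intervals that cover counting error only. The genotypes did not overlap and replicates differed by far less than the genotypes did. Of the 81 genes, 76 passed the filter on low counts and were tested, and the other 5 (Cox4i2, Cox6a2, Cox6b2, Cox7a1 and Ndufa4l2), all of complex IV, had too few counts.

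None of the 76 rose and 12 fell at an adjusted p under 0.05 (edgeR quasi-likelihood test with Benjamini-Hochberg adjustment over 11711 genes), which is 15.8% of those tested against 4.97% of all genes tested called lower and 8.8% called higher. At an unadjusted p under 0.05, 51 were lower (13.1% of all genes tested) and none was higher, and DESeq2 and limma likewise called none higher. The fold change was below 0 for 73 of the 76 (48.8% of all genes tested), and both ICAM-1 KO-labelled libraries lay below both WT libraries for 71 of them (31.3% of all genes tested). The median log2 fold change of the 76 was -0.26 (a median change of -16.6%), where the median of all genes tested was 0.01. No gene changed by 2-fold (of all genes tested, 0.538% fell and 4.94% rose by at least that much), and the range ran from -0.47 for Sdhd to 0.11 for Atp5s. The plot of the genes in each library shows the 4 libraries by complex, and the plot of fold changes gives every gene tested with its error.

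**Figure D1:**
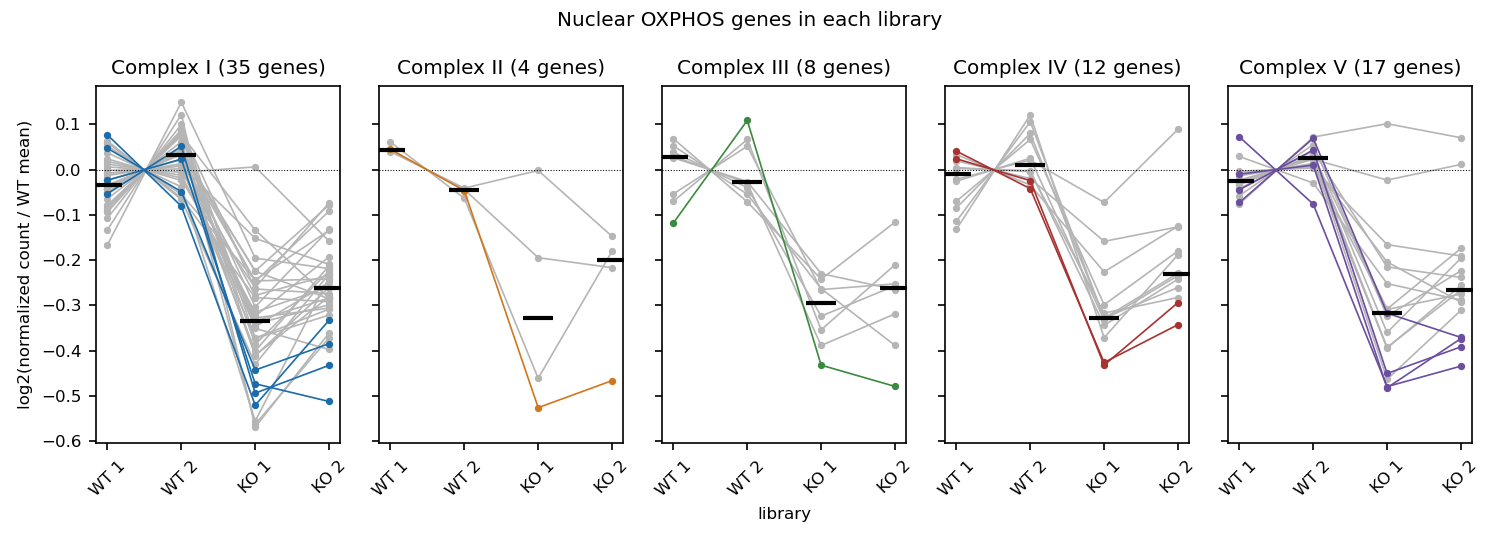
Normalized count of each tested gene in each library, as the log2 of its ratio to the mean of the WT libraries (y axis), for complexes I to V. Each line is 1 gene, coloured lines are the 12 genes that fell and black bars are the median in each library, and nearly all lines step down from the WT libraries to the ICAM-1 KO-labelled libraries.

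**Figure D2:**
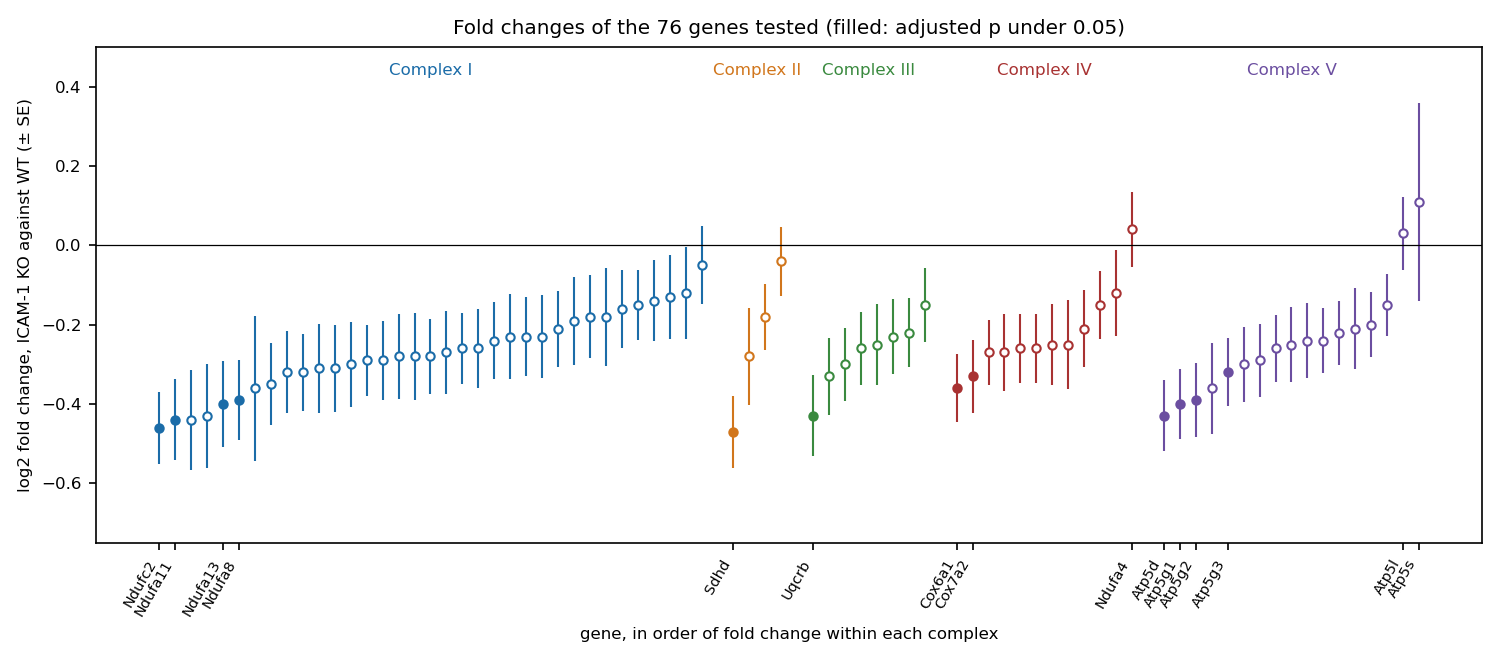
Log2 fold change of ICAM-1 KO against WT (y axis) with its standard error for the 76 genes tested, ordered within each complex. Filled points, with their names, are the 12 genes with an adjusted p under 0.05, and the 3 genes above 0, also named, are Ndufa4, Atp5l and Atp5s.

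The number of genes that fell moved when 1 library was left out, from 12 to 2 without WT replicate 1 (1.78% of all genes tested were called lower there), to 2 without WT replicate 2 (1.35%), to 4 without ICAM-1 KO replicate 1 (3.05%) and to 11 without ICAM-1 KO replicate 2 (3.31%), with 73 of 76 fold changes below 0 each time. The genes are short, with a median of 723 bases against 2669 for all genes tested, and short transcripts in general were lower in the ICAM-1 KO-labelled libraries. When the trend of fold change with length was taken out, the median of the 76 was -0.09 with 67 below 0, and 1 gene, Sdhd, fell, where 4.41% of all genes in that fit did.

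Complex I, the NADH dehydrogenase, was represented by 35 genes, all of which were tested and all of which had a fold change below 0 (median -0.28, range -0.46 to -0.05). For 34 of them both ICAM-1 KO-labelled libraries lay below both WT libraries (31.3% of all genes tested). Of the 35, 4 fell (11.4%, against 4.97% of all genes tested). Their median length was 763 bases, and of other protein-coding genes 13.5% fell under 750 bases and 14.3% from 750 to 1000 bases. Ndufc2, a subunit of the membrane arm, had normalized counts of 153 and 158 in WT and 112 and 109 in ICAM-1 KO, and fell by 27.4% (log2 fold change -0.46, standard error 0.0908, adjusted p = 0.0136, edgeR). Ndufa11, a membrane subunit needed for the assembly of the complex, had 106 and 114 in WT and 78.1 and 81.5 in ICAM-1 KO (-0.44, standard error 0.102, adjusted p = 0.0257, edgeR). In both genes the replicates lay close together and the genotypes were apart. Ndufa13, also called GRIM-19, had 174 and 156 in WT and 115 and 131 in ICAM-1 KO (-0.40, adjusted p = 0.0423, edgeR). Ndufa8, which lies on the intermembrane side, had 109 and 102 in WT and 77.6 and 80.8 in ICAM-1 KO (-0.39, adjusted p = 0.0376, edgeR). Ndufa5 lay just outside the threshold, with a log2 fold change of -0.44 and an adjusted p of 0.0508 (edgeR).

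The 7 nuclear core subunits of complex I, which carry the flavin and the iron-sulfur clusters, stood at a median of -0.19, and none passed the test with edgeR, DESeq2 or limma, with 2 lower at an unadjusted p under 0.05. The 28 supernumerary subunits, which surround the core, had a median of -0.29. Of them 4 fell (14.3%, against 4.97% of all genes tested) and 20 were lower at an unadjusted p under 0.05 (13.1% of all genes tested). The core genes were also longer, with a median of 1623 bases against 694, and with the length trend taken out both groups stood near one another, at -0.09 and -0.11. Ndufs1, the largest subunit, had 121 and 120 in WT and 121 and 108 in ICAM-1 KO (-0.05, adjusted p = 0.771, edgeR), so that the genotypes overlapped. The most abundant complex I gene per length was Ndufa1, with a mean of 556 TPM (counts per transcript length, scaled to the same sum in each library), and its normalized counts were 136 and 144 in WT and 111 and 115 in ICAM-1 KO (-0.28, adjusted p = 0.0809, edgeR).

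Complex II, the succinate dehydrogenase, is also an enzyme of the tricarboxylic acid cycle and has 4 subunits, Sdha with the flavin, Sdhb with the iron-sulfur clusters and the membrane anchors Sdhc and Sdhd. Of the 4 genes, 1 passed the test (4.97% of all genes tested fell). Sdhd had 211 and 198 normalized counts in WT and 142 and 148 in ICAM-1 KO. With means of 205 ± 9.51 and 145 ± 4.15 (SD, n = 2 libraries each) it fell by 27.9% (log2 fold change -0.47, standard error 0.0908, adjusted p = 0.0123, edgeR), the largest of the 76, and the only one to pass with the length trend taken out (-0.35, adjusted p = 0.0298, edgeR). With 1 library left out the log2 fold change of Sdhd ran from -0.52 to -0.42, and its call was lost without WT replicate 1. Sdha had 386 and 365 in WT and 375 and 339 in ICAM-1 KO, with overlapping genotypes (-0.04, standard error 0.0868, adjusted p = 0.774, edgeR), and 0.02 without ICAM-1 KO replicate 2. Sdhb had 310 and 292 in WT and 263 and 259 in ICAM-1 KO, both lower, though the change missed the threshold (-0.18, adjusted p = 0.187, edgeR). Sdhc had 109 and 100 in WT and 75.9 and 92.2 in ICAM-1 KO (-0.28, adjusted p = 0.157, edgeR), with a wide gap between the ICAM-1 KO replicates. The difference between Sdhd and Sdha was not tested.

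Complex III, the cytochrome bc1 complex, had 8 genes, with a median of -0.26 and a range from -0.43 to -0.15. All had both ICAM-1 KO-labelled libraries below both WT libraries (31.3% of all genes tested), and 1 fell (12.5%, against 4.97% of all genes tested). Their median length was 541 bases, and 13.5% of other protein-coding genes under 750 bases fell. Uqcrb, which binds ubiquinone, fell from 194 and 227 normalized counts in WT to 156 and 151 in ICAM-1 KO (-0.43, standard error 0.102, adjusted p = 0.0265, edgeR), with the WT libraries further apart than the ICAM-1 KO libraries. The most abundant per length, Uqcrq (761 TPM), had 189 and 179 in WT and 147 and 154 in ICAM-1 KO (-0.26, adjusted p = 0.0878, edgeR). Uqcrc1, 1 of the core proteins, had 434 and 394 in WT and 350 and 382 in ICAM-1 KO (-0.15, adjusted p = 0.311, edgeR), the smallest change of the complex. Uqcrc1, Uqcrc2 and the Rieske protein gene Uqcrfs1 together had a median of -0.22, and the other 5 a median of -0.26. Their median lengths were 1653 and 445 bases. With the length trend taken out the order turned, with medians of -0.19 and -0.03.

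Complex IV, cytochrome c oxidase, has nuclear subunits that come as isoforms, of which some are widely expressed and others are known from heart, muscle, lung or testis. Of its 17 genes 12 were tested, with a median of -0.25 and a range from -0.36 to 0.04, and 2 fell (16.7%, against 4.97% of all genes tested). The median length of the 12 was 632 bases, and 13.5% of other protein-coding genes under 750 bases fell. Cox6a1, the liver type of subunit VIa, had 394 and 372 normalized counts in WT and 285 and 302 in ICAM-1 KO, with means of 383 ± 16.2 and 294 ± 12.4 (SD, n = 2 each) and fell by 21.9% (-0.36, adjusted p = 0.029, edgeR). Cox7a2, the liver type of subunit VIIa, had 273 and 264 in WT and 199 and 219 in ICAM-1 KO (-0.33, standard error 0.0915, adjusted p = 0.0443, edgeR). The genotypes did not overlap for either gene. The regulatory subunit gene Cox4i1 had 395 and 377 in WT and 330 and 354 in ICAM-1 KO (-0.15, adjusted p = 0.282, edgeR). Ndufa4 was the exception in complex IV, with 201 and 207 in WT and 194 and 217 in ICAM-1 KO (0.04, adjusted p = 0.82, edgeR), and its genotypes overlapped.

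The ubiquitous isoform gave nearly all RNA of each isoform pair, on the scale of TPM. Cox4i1 stood at 961 and 890 TPM in WT and 866 and 889 TPM in ICAM-1 KO, where Cox4i2, known from lung and hypoxia, had no more than 0.747 TPM. Cox6a2, of heart and muscle, was at 0.264 and 0 TPM in WT and 1.4 and 1.05 TPM in ICAM-1 KO, from 3 and 0 counts against 14 and 12, beside 976 TPM or more for Cox6a1. Cox6b2, of testis, gave 0.688% and 1.42% of Cox6b RNA in WT and 0.959% and 1.48% in ICAM-1 KO, with overlapping genotypes. Ndufa4l2, a hypoxia-induced relative of Ndufa4, counted 0 and 2 for WT and 4 and 5 for ICAM-1 KO.

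Cox7a1, the heart and muscle type of subunit VIIa, stood apart within these low genes. Its counts were 106 and 100 for WT and 33 and 30 for ICAM-1 KO, that is 16.1 and 14.2 TPM against 5.7 and 4.56 TPM, and the genotypes were far apart beside their replicates. It was below the filter, and with no filter its log2 fold change was -1.68 with an adjusted p of 0.103 (edgeR), so that it did not pass the test. Its share of Cox7a RNA was 1.82% and 1.71% in WT and 0.803% and 0.616% in ICAM-1 KO. Cox7a2 held 84.7% and 84.8% of that RNA in WT and 83.2% and 84.4% in ICAM-1 KO. Cox7a2l, which encodes a factor that joins complexes III and IV, held 13.4% and 13.5% in WT and 16% and 15% in ICAM-1 KO. Its own normalized counts were 70.6 and 68.7 in WT and 62.4 and 63.8 in ICAM-1 KO (-0.12, adjusted p = 0.517, edgeR). The genes Cox7b and Cox8a were lower in both ICAM-1 KO-labelled libraries without passing the test (-0.27 with adjusted p = 0.1 and -0.26 with adjusted p = 0.0805, edgeR), and Cox7b2, Cox8b and Cox8c were not analysed here. The plot of isoform sets shows the distance between main and minor isoforms on a log axis.

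**Figure D3:**
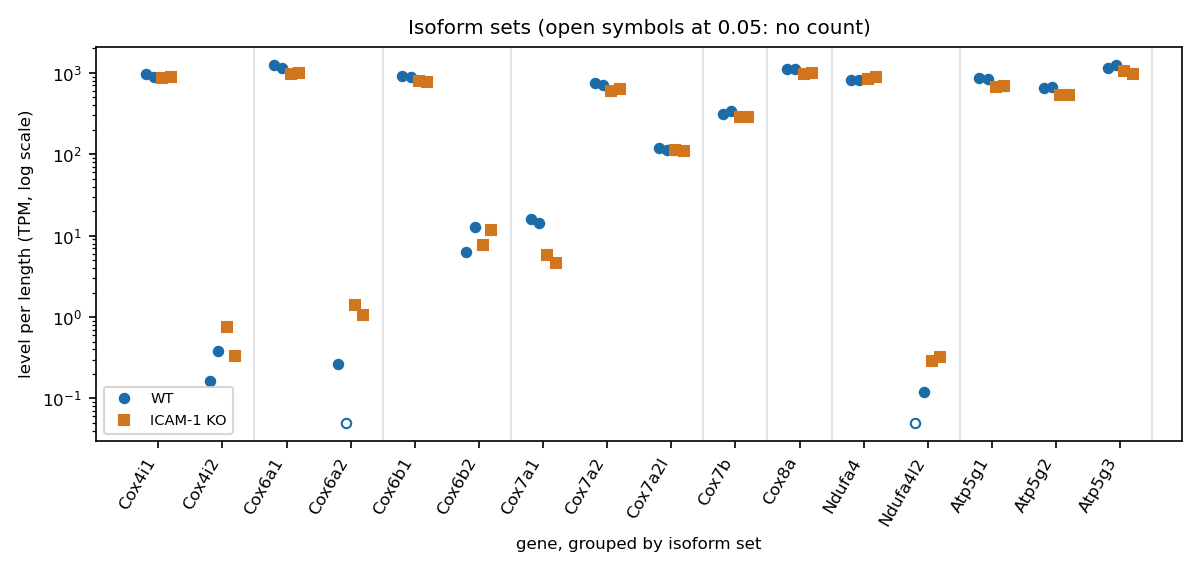
Level per length (TPM, log y axis) of the genes of each isoform set in the 4 libraries, with WT as circles and ICAM-1 KO as squares and genes without a count as open symbols at 0.05. Cox4i2, Cox6a2 and Ndufa4l2 lie near the floor, Cox7a1 is lower in both ICAM-1 KO-labelled libraries (5.7 and 4.56 TPM) than in WT (16.1 and 14.2 TPM), and the c ring genes Atp5g1 to Atp5g3 lie within a narrow band.

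Complex V held the most abundant genes and 40% and 39.8% of the counts of the 81 genes in WT and 40.4% and 39.4% in ICAM-1 KO. All 17 genes were tested, 4 fell (23.5%, against 4.97% of all genes tested), and 15 had a fold change below 0 (median -0.25). Their median length was 680 bases, and of other protein-coding genes under 750 bases 13.5% fell and 74.5% were below 0. The membrane rotor is a ring of subunit c, a single protein encoded by the genes Atp5g1, Atp5g2 and Atp5g3, which differ in the import sequence that is removed. All 3 of these genes fell. Atp5g1 had 283 and 287 normalized counts in WT and 204 and 220 in ICAM-1 KO (-0.40, standard error 0.0877, adjusted p = 0.0196, edgeR). Atp5g2 had 159 and 169 in WT and 120 and 125 in ICAM-1 KO (-0.39, standard error 0.0928, adjusted p = 0.0264, edgeR). Atp5g3 had 455 and 502 in WT and 384 and 370 in ICAM-1 KO (-0.32, standard error 0.0858, adjusted p = 0.0416, edgeR). The genotypes were separate in each, and the make-up of c ring RNA hardly moved. On the scale of TPM, Atp5g3 gave 43.3% and 44.8% of it in WT and 46.7% and 44.3% in ICAM-1 KO, Atp5g1 32.3% and 30.7% against 29.7% and 31.5%, and Atp5g2 24.5% and 24.5% against 23.7% and 24.1%. With the length trend taken out, the median of the 3 genes was -0.17 and none passed the test. None passed with no filter on low counts (adjusted p 0.0506 to 0.0657, edgeR), and Atp5g3 did not with the older quasi-likelihood form (0.0547). With 1 library left out, log2 fold changes ran from -0.47 to -0.34 for Atp5g1, -0.44 to -0.35 for Atp5g2 and -0.38 to -0.24 for Atp5g3. These fits leave 1 library in a genotype, and each of the 3 genes lost its call in some of them.

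The catalytic F1 part of complex V comprises subunits alpha to epsilon. Its 5 genes had a median of -0.24, and 1 fell, Atp5d (subunit delta), with 368 and 332 in WT and 251 and 259 in ICAM-1 KO (-0.43, standard error 0.0895, adjusted p = 0.0166, edgeR). Atp5b, the catalytic beta subunit, was the most abundant of the 81 genes per length, at a mean of 1712 TPM. It had 1984 and 1905 normalized counts in WT and 1633 and 1592 in ICAM-1 KO, with means of 1944 ± 55.8 and 1613 ± 29.1 (SD, n = 2 each). Its change of -15.5% missed the threshold (-0.24, adjusted p = 0.0792, edgeR), though the genotypes did not overlap. Atp5a1, the alpha subunit, had 1034 and 1039 in WT and 924 and 908 in ICAM-1 KO (-0.15, adjusted p = 0.229, edgeR). The 4 genes of the peripheral stalk (Atp5f1, Atp5h, Atp5j and Atp5o) had a median of -0.25, and the 4 membrane and dimer subunits (Atp5j2, Atp5k, Atp5l and Atp5mpl) a median of -0.23. None of these 8 passed the test with edgeR, with 4 and 2 lower at an unadjusted p under 0.05 (13.1% of all genes tested), while DESeq2 called 2 and 1 of them lower and limma 2 and 0. Atp5l, subunit g, had 124 and 128 in WT and 124 and 127 in ICAM-1 KO (0.03, adjusted p = 0.877, edgeR), with overlapping genotypes. Atp5s, the coupling factor B gene, was the least abundant tested, with 8.72 and 9.66 in WT and 9.86 and 9.65 in ICAM-1 KO (0.11, standard error 0.25, adjusted p = 0.805, edgeR).

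By the deposited coordinates (mm10, strand in brackets) the 12 genes that fell are spread over 10 chromosomes. Icam1, the targeted gene, lies at chr9:21015985-21028817, on the same chromosome as Sdhd and Cox7a2. The part of this shared chromosome in their values was not tested. The complex I genes were Ndufa11 at chr17:56717767-56722141 (plus), Ndufa13 at chr8:69894180-69902558 (minus), Ndufa8 at chr2:36036326-36049406 (minus) and Ndufc2 at chr7:97400003-97407802 (plus). The complex II gene was Sdhd at chr9:50596357-50603812 (minus). The complex III gene was Uqcrb at chr13:66900617-66905378 (minus). The complex IV genes were Cox6a1 at chr5:115345642-115348981 (minus) and Cox7a2 at chr9:79755361-79759878 (minus). The complex V genes were Atp5d at chr10:80138632-80145818 (plus), Atp5g1 at chr11:96068852-96075670 (minus), Atp5g2 at chr15:102662864-102672352 (minus) and Atp5g3 at chr2:73908447-73911326 (minus).

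The complexes kept their proportions to one another. Complex I took 24.6% and 25.2% of the counts of the 81 genes in WT and 24.4% and 24.8% in ICAM-1 KO, complex II 6.22% and 5.79% against 6.39% and 6.09%, complex III 10.1% and 9.85% against 9.91% and 9.9%, and complex IV 19.1% and 19.4% against 18.9% and 19.8%. The libraries of the genotypes overlapped in each of the 5 complexes. The medians of the 5 complexes lay between -0.28 (complex I) and -0.23 (complex II).

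Across the 76 genes, Spearman's rho between log2 fold change and transcript length was 0.29, and across 11675 genes tested with a length it was 0.26, with longer transcripts higher in the ICAM-1 KO-labelled libraries. These are descriptions across genes of the same 4 libraries, and genes are not independent replicates. Among the other protein-coding genes under 750 bases (384 genes) the median was -0.21, 74.5% were below 0 and 13.5% fell. The 40 oxidative phosphorylation genes of that length had a median of -0.28, with 38 below 0 and 8 that fell. From 750 to 1000 bases the medians were -0.22 over 433 other genes and -0.25 over 10 oxidative phosphorylation genes. From 1000 to 1500 bases they were -0.12 over 1178 and -0.24 over 12, and from 1500 to 2500 bases -0.04 over 2644 and -0.20 over 11. The shortest of the genes stood close to other short genes, and the distance was wider from 1000 to 2500 bases, a difference between classes that was not tested. GC content had a rho of -0.28 with fold change over the 76 and -0.08 over all genes. With the GC trend taken out 21 genes fell, where 5.95% of all genes in that fit did, and the median was -0.27. The part of transcript length was not tested beyond the fit with the length trend.

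**Figure D4:**
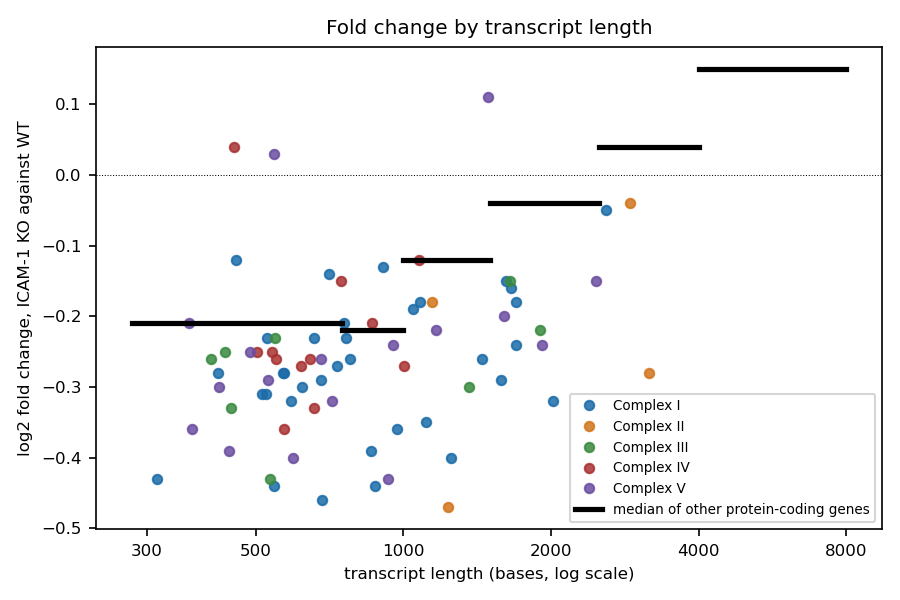
Log2 fold change of ICAM-1 KO against WT (y axis) by transcript length in bases (log x axis) for the 76 genes, coloured by complex. Black bars are medians of the other protein-coding genes in each length class and rise from -0.21 under 750 bases to 0.15 over 4000 bases, the last class being open to the right, and most of the 76 genes lie below the bar of their class.

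Of the 13 subunits encoded by mitochondrial DNA, 11 had a fold change above 0. None passed the test in either direction with edgeR (3 were higher and 1 lower at an unadjusted p under 0.05, and DESeq2 called 3 higher, limma none and edgeR 2 with the length trend taken out, 4 with a replicate block, 1 without ICAM-1 KO replicate 2 and 1 without WT replicate 1, and 1 was called lower with the GC trend taken out), and the median log2 fold change was 0.12. The range ran from -0.29 for mt-Nd3, with 118 and 118 normalized counts in WT and 98.1 and 91.5 in ICAM-1 KO (adjusted p = 0.0808, edgeR), to 0.37 for mt-Co1, with 2080 and 1596 against 2568 and 2109 (adjusted p = 0.101, edgeR). They took 1.1% and 0.883% of counts in WT and 1.28% and 1.08% in ICAM-1 KO, shares that overlapped. Set against the 81 nuclear genes, the count ratio of mitochondrial to nuclear subunits was 0.609 and 0.487 in WT and 0.825 and 0.687 in ICAM-1 KO, without overlap. With 2 libraries a genotype, an exact permutation test of this ratio (two-sided) could not give a p under 0.333.

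The electron carriers and partners that the symbol rule did not take were lower too, with 4 of 11 falling (4.97% of all genes tested fell), none rising, and a median of -0.30. With the length trend taken out the median was -0.14 and 1 fell, and 1 fell without ICAM-1 KO replicate 1, 1 without WT replicate 1 and none without WT replicate 2. Cycs, which encodes cytochrome c, the carrier from complex III to complex IV, had 336 and 354 in WT and 218 and 249 in ICAM-1 KO (-0.53, standard error 0.0967, adjusted p = 0.0098, edgeR), and stood at -0.58 with the length trend taken out and at -0.50 without WT replicate 2 (adjusted p = 0.0595, edgeR). Atpif1, the inhibitor of the ATP synthase, had 181 and 197 in WT and 143 and 150 in ICAM-1 KO (-0.34, adjusted p = 0.0434, edgeR). The others that fell were Ndufab1, the acyl carrier protein of complex I (-0.38), and Slc25a5, an ADP/ATP carrier (-0.30). Cyc1, cytochrome c1 of complex III, had 246 and 239 in WT and 203 and 198 in ICAM-1 KO (-0.25, adjusted p = 0.0809, edgeR).

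Of 49 assembly factors none passed the test in either direction with edgeR, DESeq2 or limma, and 38 were below 0 (median -0.21). At an unadjusted p under 0.05, 5 were lower (13.1% of all genes tested were) and none was higher. The smallest p was that of Cox10, a haem A synthesis gene (-0.38, adjusted p = 0.0847, edgeR). Of 16 genes of the tricarboxylic acid cycle and its entry 1 fell, Suclg1, a subunit of succinyl-CoA ligase, with 126 and 133 in WT and 103 and 97.2 in ICAM-1 KO (-0.34, adjusted p = 0.0477, edgeR), and the median was -0.18. This is 6.25% of the list against 4.97% of all genes tested, and the call of Suclg1 was lost when any library was left out (adjusted p 0.0953 to 0.187, edgeR), with the length trend taken out (0.117), under the replicate block (0.0569), with the older quasi-likelihood form (0.053), with filterByExpr (0.054) and with no filter (0.0918). Among 13 regulators tested none fell (1 was lower at an unadjusted p under 0.05, and DESeq2 and limma called none lower) and 1 rose, where 8.8% of all genes tested rose. The gene that rose was Gabpb1, a subunit of the ETS factor GABP, with 63.9 and 77.3 in WT and 94.4 and 110 in ICAM-1 KO (0.56, standard error 0.131, adjusted p = 0.026, edgeR). The call was lost without ICAM-1 KO replicate 2 (adjusted p = 0.0824, edgeR), without WT replicate 1 (0.122) and with no filter (0.111). Nrf1 (0.08, adjusted p = 0.743) and Gabpa (0.26, adjusted p = 0.255) did not pass the test in edgeR, and Ppargc1a, the coactivator PGC-1 alpha, was below the filter at under 1 normalized count in every library. The median log2 fold change was -0.34 over the 16 genes with an NRF1 word in their window and -0.25 over the 48 tested genes with a window but no such word, and for the ETS word the medians were -0.26 over 15 and -0.27 over 49, a description without a test.

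The mitochondrial ribosome, which translates only the mitochondrially encoded subunits, was lower throughout. All 78 of its genes had a fold change below 0 (48.8% of all genes tested), with a median of -0.33. In 76 both ICAM-1 KO-labelled libraries lay below both WT libraries (31.3% of all genes tested), and 12 fell with none rising (4.97% of all genes tested fell). The count was 7 without ICAM-1 KO replicate 1, 5 without ICAM-1 KO replicate 2, 3 without WT replicate 1, 2 without WT replicate 2 and 3 with no filter on low counts. The smallest p was that of Mrpl36, with 94.3 and 90.4 in WT and 53 and 55.9 in ICAM-1 KO (-0.73, standard error 0.108, adjusted p = 0.00418, edgeR). With the length trend taken out its genes had a median of -0.23 and 10 fell, where 1 of the nuclear oxidative phosphorylation genes did.

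**Figure D5:**
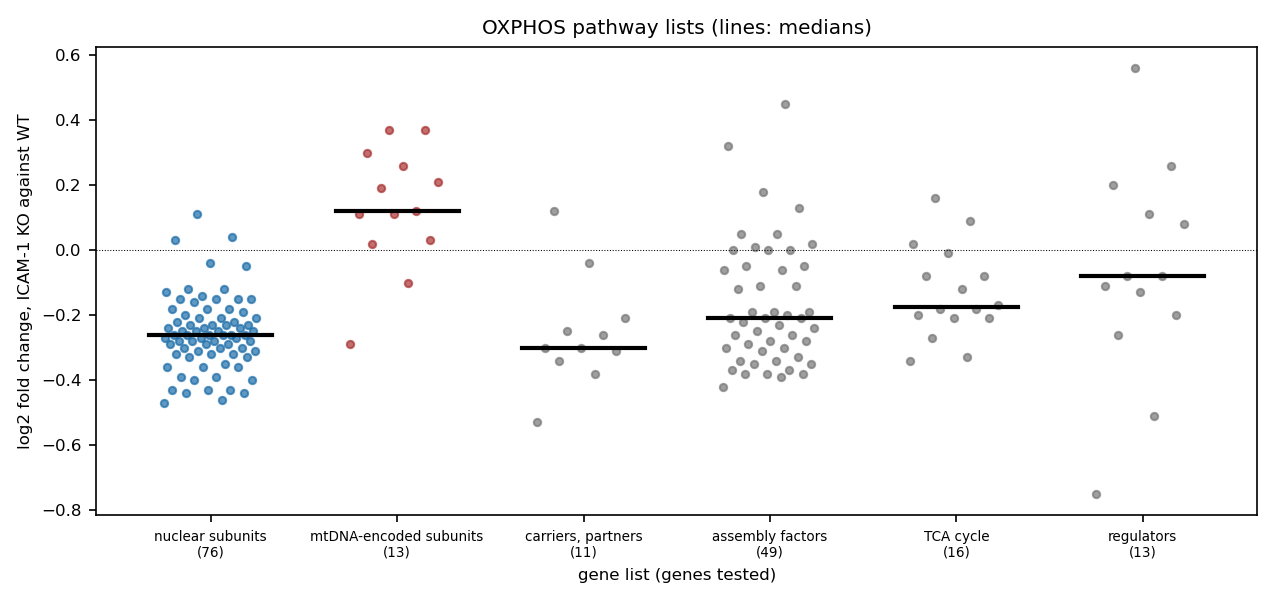
Log2 fold change of ICAM-1 KO against WT (y axis) of each tested gene in 6 lists (x axis, number tested in brackets), with bars at the medians. The nuclear subunits (median -0.26) and the carriers (-0.30) lie mostly below 0, and the mitochondrially encoded subunits (0.12) mostly above it.

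Several of the 81 genes share sequence or position with other rows. In 29 of them the annotated gene overlaps another gene, among them Ndufs6 with Mrpl36 and Atp5j with Gabpa, and since it is not stated whether counting used strand, reads of such pairs cannot be told apart. In 68 the count of at least 1 library was not whole (to within 0.001), as reads were split between genes or transcripts. Of 8 rows with a fitting symbol but another gene type, 7 were processed pseudogenes. The largest of these, Ndufb4c, had 1398 and 1450 counts in WT and 1015 and 1147 in ICAM-1 KO, so that values of Ndufb4 are uncertain. Ndufb1-ps, annotated as a noncoding gene at a bidirectional promoter, had 3249 and 3656 counts in WT and 2519 and 2661 in ICAM-1 KO and was left out by the rule. For 4 genes, Ndufb2, Ndufc1, Uqcrq and Atp5g1, transcripts differ in length by over 2-fold, which bears on their TPM.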

How the data were processed

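RNA of sorted lung ILC2s was sequenced in 4 libraries, 2 WT and 2 ICAM-1 KO, grouped by their labels. cDNA was made from 10 ng of RNA with a SMARTer low-input kit, and the authors aligned reads with STAR to mm10 and estimated counts per gene with GENCODE M20 in Partek. The deposited expected counts (22558 genes) are not normalized. The authors also deposited a normalized signal (18324 genes), which is the count plus 1 times an upper quartile factor of each library, and normalized counts are given from it. Whether libraries came from separate sorts is not stated, so p-values measure the spread between these libraries.

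Counts were rounded and tested with edgeR 4.0.16 in R 4.3.3 (quasi-likelihood test, upper quartile factors, no covariate) on the 11711 genes whose normalized counts averaged 1 or more and summed to 10 or more, with Benjamini-Hochberg adjustment. The paper's own differential test was not run. Rose and fell mean an adjusted p under 0.05. Standard errors come from the fold change and its F statistic. TPM used the shortest principal transcript of GENCODE M21, whose coordinates equal those deposited for 76 of the 81 genes, and the length or GC trend was a lowess curve entered as an offset. Alternatives were TMM, DESeq2 1.42.0, limma 3.58.1 (log2 of the normalized count plus 1), other filters, the older quasi-likelihood form, a replicate block and leaving out each library. The test was also run on simulated counts that held no length trend, and no result above rests on that run. The genes, lists, promoter words and named genes (all that passed the test, the most abundant and lowest p of each complex, the Sdh genes, isoform sets, and the lowest p of each list) were chosen with earlier results of these data known, and Ndufa5, Ndufs1, Uqcrc1, Atp5a1, Atp5l, Atp5s, Cyc1, Nrf1, Gabpa, Ppargc1a and the groups within complexes I, III and V after their values were seen.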

Additional observations from a re-analysis of the deposited data

How the results depend on the processing

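None of the 76 genes rose under any alternative. The number that fell, 12 in the test reported, was 29 with DESeq2, 26 with limma, 21 with the GC trend and 1 with the length trend taken out, where 7.94%, 6.5%, 5.95% and 4.41% of all genes were lower, and 3 of 81 with no filter on low counts (0.907% of all genes), and it ran from 2 to 11 when a library was left out. The same 12 genes were among those of DESeq2, limma and the GC fit, and 2 of them among the 3 without a filter, which tested 22158 genes and called 334 of all genes higher and 201 lower (1030 and 582 in the test reported). DESeq2 called 930 of all genes lower, and without 1 library 158 to 388 were lower and 479 to 948 higher. The median log2 fold change, -0.26, was -0.09 with the length trend taken out and -0.31 with no filter, and ran from -0.31 to -0.22 without 1 library. With the length trend taken out the sign turned for 6 of the 76 genes, Cox4i1 and Cox7a2l (0.03 each), Ndufb2 (0.097), Ndufb9 (0.042), Ndufb11 (0.021) and Atp5mpl (0.024). It turned for Ndufa4 (-0.01) and Atp5l (-0.018) without a filter and for Atp5l with filterByExpr (-0.0038). Without ICAM-1 KO replicate 2 it turned for Ndufa4 (-0.06, where it was up to 0.13 without another library), Sdha (0.02, down to -0.11), Ndufs1 (0.019) and Atp5l (-0.003), and it turned for the assembly factor Tmem70 (-0.00041 without WT replicate 1, up to 0.38). The length trend moves these values by its construction, and for the others the cause was not tested.

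Replicate numbers occur in both genotypes but name different animals, and deviations of same-numbered libraries had a correlation of -0.05817. With the replicate number as a block 16 genes fell, the same 12 among them, and over all genes 1077 were higher and 638 lower. With 2 libraries a genotype the spread of a single gene rests on the trend over all genes, and the 5 genes below the filter had at most 106 counts in a library.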
